A study of Mus musculus with 20 samples.

Results

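Scn1a encodes Nav1.1, a pore-forming alpha subunit of the voltage-gated sodium channel. In 3 mouse brain regions its transcript carried 72 nucleotides listed as edited, of 25978 listed for 3731 genes. The lists come from a method meant to edit RNA next to N6-methyladenosine (m6A). Whether each listed site lies next to m6A was not tested. The sites were all those whose deposited gene symbol was Scn1a, with 59 cortical, 27 hippocampal and 59 cerebellar ones. The gene was chosen by its number of listed sites in these data, so its counts and levels are given here as a description, with no test.

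Nav1.1 opens on depolarisation and carries the sodium current that starts and propagates the action potential. In the brain it is known for its role in fast-spiking parvalbumin interneurons and in cerebellar Purkinje cells, and loss of function of the human gene is a cause of Dravet syndrome, an infantile epilepsy. m6A is a methyl mark placed on adenosines of messenger RNA by the METTL3 and METTL14 methyltransferase complex, often towards the 3′ end of the transcript. YTH domain proteins bind it and influence the stability, translation and location of the RNA.

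The mice carried a tamoxifen-inducible transgene for APOBEC1-YTH, a cytidine deaminase joined to an m6A-binding YTH domain. Cytidines close to m6A are thereby converted to uridines and read as C-to-U changes in RNA-seq. The series also held libraries from APOBEC1-YTHmut mice. All mice of both genotypes were given 20 mg/kg tamoxifen by intraperitoneal injection at intervals of 24 h for 5 days, and whole cortex, whole hippocampus and whole cerebellum were taken 7 days after the last injection. Each region had 4 APOBEC1-YTH libraries from the same 4 animal numbers. The APOBEC1-YTHmut libraries numbered 3 for cortex, 2 for hippocampus and 3 for cerebellum. The labels used here name neither the age and sex of the mice nor the promoter or Cre driver of the transgene. A whole region mixes many cell types, so edited Scn1a RNA from fewer cells and weaker editing in each cell cannot be told apart.

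Each region was deposited as 1 list with 1 value per site. This value, called the editing level, is printed in percent and taken to be the edited fraction of reads over the combined APOBEC1-YTH libraries. No list gives read depth, values per library or APOBEC1-YTHmut values. No spread between animals can therefore be set beside any difference, and absence from a list does not show that a site was unedited. Neighbouring sites lie in the same transcripts and often in the same reads, so they are not replicates of a region. Marker genes of the regions could be checked only through their own sites. The Purkinje cell gene Calb1 had 45 sites in cerebellum, 1 in cortex and 0 in hippocampus. Fibcd1, a marker of hippocampal field CA1, had 20 sites in hippocampus and none elsewhere, whereas Wfs1, also a CA1 marker, had 10 there, 9 in cortex and 1 in cerebellum, so its sites did not set hippocampus apart from cortex. Tbr1, of deep-layer cortical neurons, had 4 in cortex, 1 in hippocampus and none in cerebellum. Other defining markers, among them Prox1, Pcp2 and Gabra6, had no site in any list.

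The first comparison was of site numbers. Scn1a had as many sites in cerebellum as in cortex, 59 in each, and 27 in hippocampus. With a minimum level of 2% the numbers were 56 in cerebellum, 46 in cortex and 26 in hippocampus, so the equality depended on sites under 2%. Over all genes the lists held 17878 cortical, 13461 hippocampal and 11391 cerebellar sites, so the cerebellar list as a whole was 0.637 times as long as the cortical one and the hippocampal list 0.753 times. For Scn1a the corresponding ratios were 1.0 and 0.458. Scn1a thus made up 0.518% of all cerebellar sites, 0.33% of cortical sites and 0.201% of hippocampal sites. It ranked 5th of 2228 genes by site number in cerebellum, 8th of 3163 in cortex, where 1 other gene had the same number, and 66th of 2547 in hippocampus, where 6 others had the same number. Of 200 genes with at least 20 sites in cortex or hippocampus, 178 had a higher ratio of hippocampal to cortical sites than Scn1a and 21 a lower one. Of 227 genes with at least 20 sites in cortex or cerebellum, 63 had a higher ratio of cerebellar to cortical sites and 158 a lower one.

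The short hippocampal list of Scn1a also lacked low levels. Its lowest level was 1.92%, and 3.7% of its sites were under 2%, against 30.5% of the hippocampal sites of all genes. Sites under 2% made up 22.0% of the cortical Scn1a sites (28.7% for all genes) and 5.08% of the cerebellar ones (22.0% for all genes). Of the 32 cortical Scn1a sites that hippocampus did not list, 8 had a cortical level under 1.92% and another 8 a cortical level of 5% or more. Depth at the gene sets which low levels can be listed. It is unknown for each region, and its part in the site numbers was not tested.

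Next, the positions were compared. RefSeq places Scn1a on chromosome 2 from 66270781 to 66440837 of GRCm38.p6, the assembly of mm10, a span of 170057 nt, and the listed sites lie on the minus strand, so that the 3′ end of the gene is its lowest coordinate. All 72 sites fell inside this span, and 69 of them lay in a single stretch between 90 and 3201 nt upstream of the annotated 3′ end. The site nearest to the 3′ end, at position 66270871, was the same in every region. Cortical sites had a median distance of 2068 nt from the 3′ end, hippocampal sites 2008 nt and cerebellar sites 1964 nt. The remaining 3 sites lay far upstream, 47260 nt (66318041, cortex 3.12%), 64713 nt (66335494, cortex 5.66% and cerebellum 5.0%) and 67145 nt (66337926, cortex 8.93%) from the 3′ end. None of these was listed in hippocampus. Which exon, intron or untranslated part each site belongs to was not analysed here, because the annotation used gives gene spans only.

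**Figure D1:**
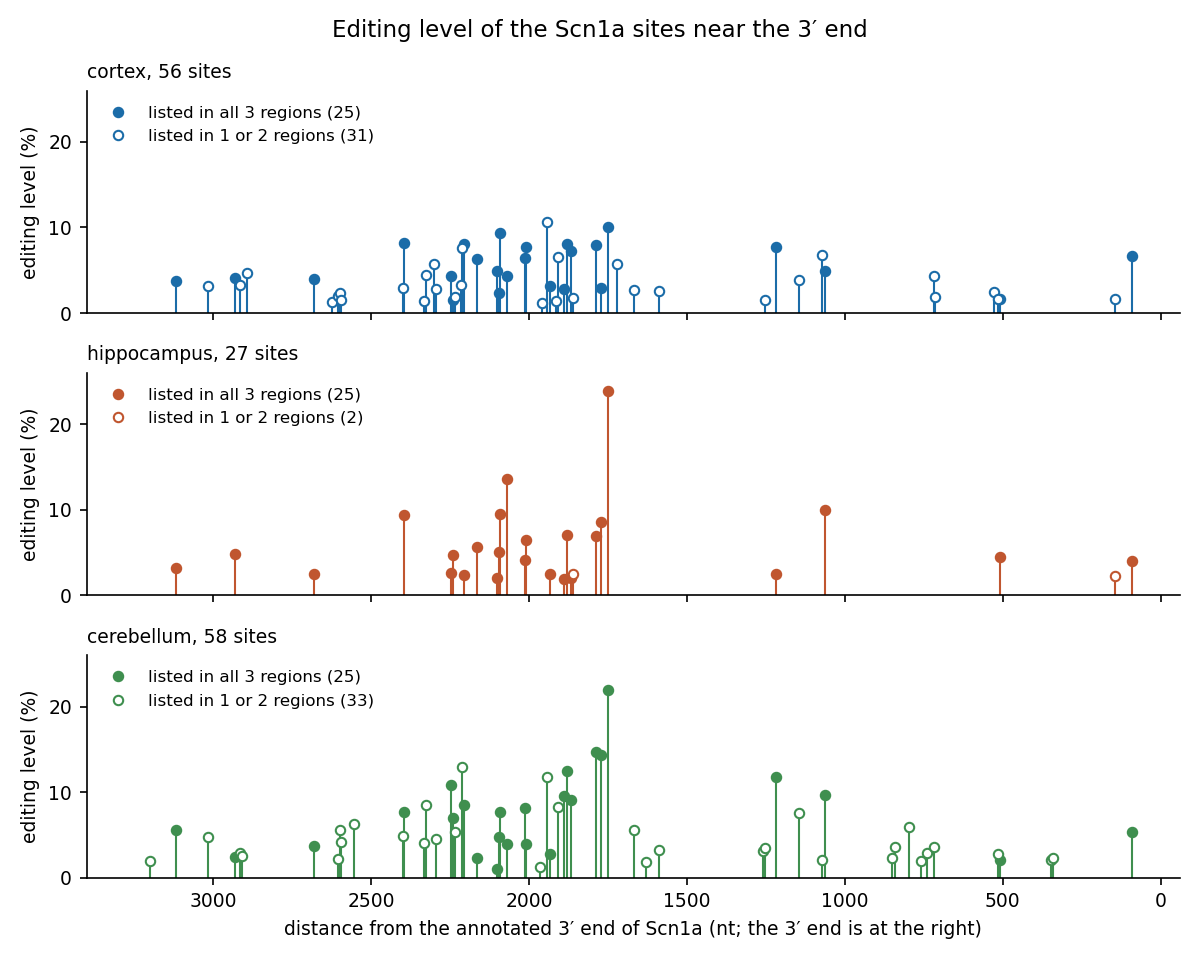
Editing level in percent (vertical axis) of each Scn1a site against its distance in nt from the annotated 3′ end (horizontal axis), with 1 panel per region; filled points are the 25 sites listed in all 3 regions and open points the sites listed in 1 or 2 regions. Sites crowd between 1500 and 2499 nt in every region, the highest points in hippocampus (23.9%) and cerebellum (21.9%) are at the same nucleotide, and the 3 sites far upstream lie outside the plot.

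Within the 3′ stretch the sites were densest from 1500 to 2499 nt, limits that were set after the positions had been seen. This 1000 nt held 34 of 59 cortical sites (57.6%), 19 of 27 hippocampal sites (70.4%) and 30 of 59 cerebellar sites (50.8%). Levels were also higher there. In cerebellum the median level was 7.31% in this stretch, against 3.18% closer to the 3′ end and 3.70% farther upstream. Cortex had medians of 4.42%, 3.14% and 3.23% for these parts, and hippocampus 5.10%, 4.0% and 3.26%. Summed over sites, the stretch accounted for 64.4% of the cortical, 78.1% of the hippocampal and 65.1% of the cerebellar editing level of Scn1a.

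The lists were then matched nucleotide by nucleotide. All 27 hippocampal sites of Scn1a were also cortical sites (100%), against 69.7% of hippocampal sites of all genes. Cerebellum listed 25 of the 27 (92.6%), against 42.3% over all genes. In the opposite direction the 27 sites were 45.8% of the cortical sites of Scn1a (52.5% over all genes), and 25 were 42.4% of its cerebellar sites (49.9% over all genes). Cortex and cerebellum shared 46 sites, which were 78.0% of the 59 in either region. Over all genes 37.1% of cortical sites were listed in cerebellum and 58.2% of cerebellar sites in cortex. Hippocampus thus added no Scn1a position of its own. Of the hippocampal Scn1a sites 3.7% were under 2%, against 30.5% for all genes. The part of this in these shares was not tested.

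Among single genes with at least 20 sites the shares of Scn1a stood at different places. In the share of hippocampal sites found in cortex, 0 of 145 genes were above Scn1a and 7 others were also at 100%. In the share of hippocampal sites found in cerebellum, 4 of the 145 were above it. In the share of cortical sites found in cerebellum, 19 of 181 genes were above it and 161 below, and in the share of cortical sites found in hippocampus 140 were above it and 40 below.

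**Figure D2:**
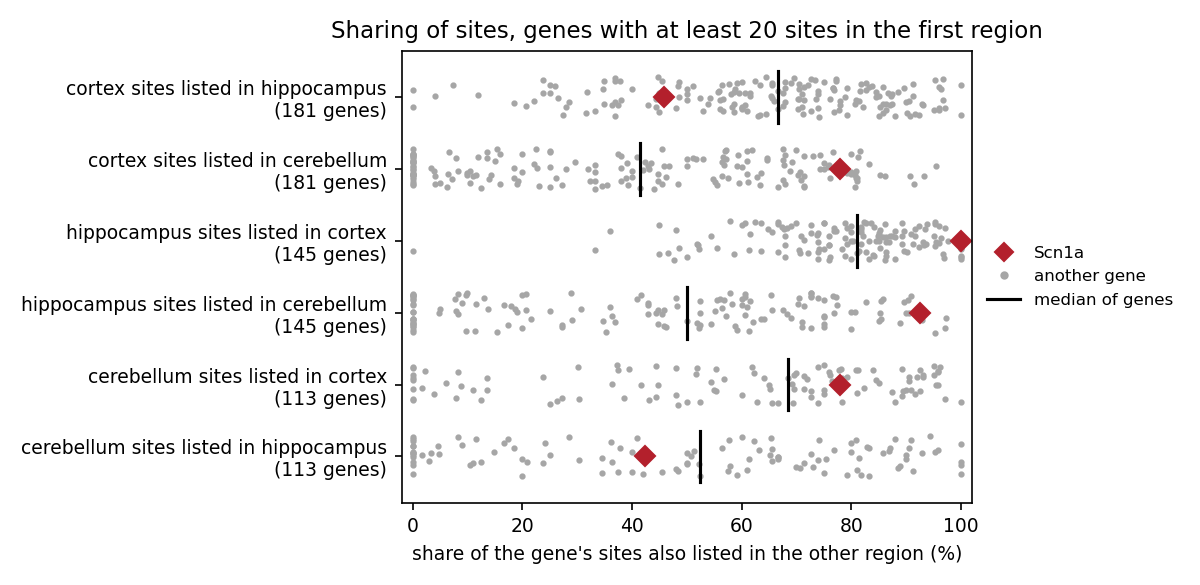
Share in percent of a gene's sites in a first region that a second region also lists (horizontal axis) for each ordered pair of regions, over genes with at least 20 sites in the first region; the diamond is Scn1a, grey points are the other genes, spread vertically only to separate them, and the black bar is the median of the genes. Scn1a lies at 100% for hippocampal sites found in cortex and at 92.6% for those found in cerebellum, right of the medians of 81.0% and 50%, and left of the median for cortical and cerebellar sites found in hippocampus.

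Of the 72 sites, 25 (34.7%) were listed in all 3 regions, against 19.0% of the 25978 sites of all genes. A further 21 (29.2%) were listed in cortex and cerebellum only, a class that held 6.49% of the sites of all genes, and 2 (2.78%) in cortex and hippocampus only, against 17.1%. Cortex alone listed 11 (15.3%, against 26.2% over all genes) and cerebellum alone 13 (18.1%, against 15.5%). No Scn1a site was listed in hippocampus alone (12.8% over all genes) or in hippocampus and cerebellum only (2.87%). Sites missing from a list had lower median levels than those in all 3, though single sites among them, such as the highest cortical one, did not. In cortex the median level was 4.95% at the 25 sites of all regions, 2.97% at the 21 sites shared with cerebellum only and 3.12% at the 11 cortex-only sites. In cerebellum these medians were 7.66% for the 25 sites, 4.76% for the 21 and 2.27% for the 13 cerebellum-only sites. The 2 sites of cortex and hippocampus lay at 1.68% and 2.22% (66270927) and at 1.71% and 2.56% (66272641).

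Of the 11 cortex-only sites, 5 (45.5%) were within 10 nt and 9 (81.8%) within 50 nt of a site of another region, against 9.94% and 33.0% of the cortex-only sites of all genes. The other 2 were those 47260 and 67145 nt upstream. Of the 13 cerebellum-only sites, 3 (23.1%) were within 10 nt and 7 (53.8%) within 50 nt, against 8.74% and 29.0% over all genes. Scn1a is dense in sites, with a median spacing in its 3′ stretch of 21 nt in cortex and 25 nt in cerebellum, and the part of this density in these shares was not tested. Of the other 6, 5 lay closer to the 3′ end than the dense stretch, and 1 was the site farthest upstream in the 3′ stretch, at 3201 nt. Between 741 and 852 nt upstream, 5 sites were listed and all were cerebellum-only, with levels of 2.86%, 2.0%, 5.94%, 3.6% and 2.26% in order of distance. At 341 and 348 nt a further 2 cerebellum-only sites were at 2.27% and 2.13%. Neither cortex nor hippocampus listed a site from 750 to 999 nt or from 250 to 499 nt. These groups were singled out after their values had been seen.

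Most levels of Scn1a were under 10%. They ran from 1.15 to 10.6% in cortex with a median of 3.85%, from 1.92 to 23.9% in hippocampus with a median of 4.55%, and from 1.02 to 21.9% in cerebellum with a median of 4.72%. The medians over all genes were 2.91%, 2.82% and 3.36% in this order. Among genes with at least 20 sites, the Scn1a median ranked 34th of 181 in cortex, 14th of 145 in hippocampus and 20th of 113 in cerebellum. A level of 10% or more was reached by 2 sites in cortex (3.39%, against 6.54% of sites of all genes), 3 in hippocampus (11.1%, against 6.14%) and 8 in cerebellum (13.6%, against 8.99%). The 3 medians include different sites, and with no spread between animals their order is not established.

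At the 46 sites shared by cortex and cerebellum the cerebellar level was more often the higher one. It was higher at 32 sites (69.6%) and lower at 14, where 52.6% of shared sites of all genes were higher in cerebellum. The median log2 ratio of cerebellum to cortex was 0.58, a 1.5-fold higher level, against 0.06 over the shared sites of all genes. Levels at least 2 times higher in cerebellum were found at 11 sites (23.9%, against 15.1% for all genes) and at least 2 times lower at 3 (6.52%, against 12.0%). Of 45 genes with at least 20 sites shared by these regions, 6 had a higher median log2 ratio than Scn1a. In the dense stretch 21 of 28 shared sites were higher in cerebellum, closer to the 3′ end 6 of 9, and from 2500 to 3499 nt 5 of 8. Of the 21 shared sites that hippocampus did not list, 17 were higher in cerebellum, and of the 25 sites of all regions 60.0%. The shares over all genes were not computed for these parts and classes, so whether these counts are usual is not known. Sites under 2% made up 5.08% of the cerebellar and 22.0% of the cortical Scn1a sites. A site low in cerebellum may therefore be missing from the shared set, and the part of this in the counts was not tested.

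At the 27 sites shared by cortex and hippocampus the higher levels were divided between the regions. Hippocampus was higher at 12 (44.4%, against 48.4% over all genes) and lower at 15, with a median log2 ratio (hippocampus over cortex) of -0.20, against -0.02 over all genes. Single sites nevertheless lay far apart. At least 2 times higher in hippocampus were 7 sites (25.9%, against 7.37% over all genes) and at least 2 times lower 4 (14.8%, against 8.17%). The SD over sites of this log2 ratio was 1.02 for Scn1a and 0.71 for all shared sites. For hippocampus and cerebellum, 14 of 25 shared sites were higher in cerebellum (56.0%, against 51.9% over all genes), with a median log2 ratio of 0.41 against 0.04. Of these 25 sites, 6 were at least 2 times higher in cerebellum (24.0%, against 15.2%) and 4 at least 2 times lower (16.0%, against 11.4%). The 3 comparisons share lists, so their counts are not independent of each other.

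**Figure D3:**
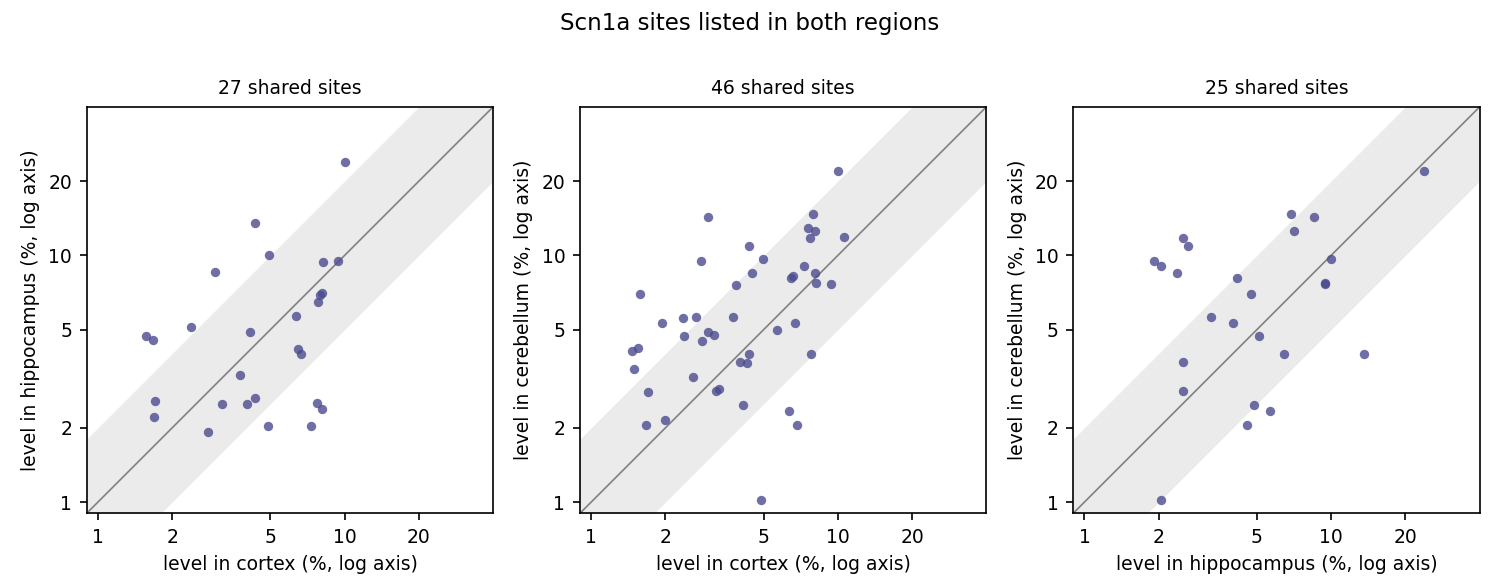
Editing level in percent at the Scn1a sites listed in both regions of a pair, on log axes, with 1 point per site; the line marks equal levels and the grey band levels less than 2 times apart. For cortex and cerebellum 32 of 46 points lie above the line, for cortex and hippocampus 12 of 27, and for hippocampus and cerebellum 14 of 25.

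Across shared sites the levels of Scn1a were loosely related between regions. The Spearman correlation was 0.37 for cortex and hippocampus over 27 sites, 0.49 for cortex and cerebellum over 46 and 0.24 for hippocampus and cerebellum over 25. Over the shared sites of all genes these were 0.71, 0.55 and 0.57, which also include differences between genes. Sites share transcripts and reads, and the values are descriptions.

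The most edited nucleotide of Scn1a in both hippocampus and cerebellum was position 66272530, 1749 nt upstream of the 3′ end. Cortex showed 10% editing there, hippocampus 23.9% and cerebellum 21.9%, so that it was 2.39 times as high in hippocampus and 2.19 times as high in cerebellum as in cortex. The next sites upstream, at 66272554 and 66272570, were also among the highest in cerebellum. Position 66272554 stood at 2.98% in cortex, 8.55% in hippocampus and 14.3% in cerebellum, the largest ratio of cerebellum to cortex among the shared Scn1a sites (4.80-fold). At 66272570 it was 7.93%, 6.90% and 14.7% in the same order. These 3 sites had the 3 highest cerebellar levels of the gene, and hippocampus exceeded cortex at the first 2 of them.

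In cortex the highest site was a different one, position 66272723, 1942 nt upstream. It stood at 10.6% in cortex and 11.8% in cerebellum and was not listed in hippocampus, although hippocampus listed the neighbouring positions 66272715 (2.50%) and 66272789 (6.45%). Other high cerebellar sites were 66272993 (7.56% in cortex, 12.9% in cerebellum, not listed in hippocampus) and 66272660 (8.09% in cortex, 7.06% in hippocampus, 12.5% in cerebellum). A few sites stood at similar levels everywhere. At 66273175 the levels were 8.14% in cortex, 9.43% in hippocampus and 7.69% in cerebellum. At 66272874 they were 9.40%, 9.47% and 7.66%. Of the 25 sites of all regions, 10 had a highest level under 2 times their lowest, and 5 were at 5% or more in every region. The same shares were not computed over all genes, so whether these counts are usual is not known.

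Other sites had a hippocampal level apart from the other regions. Position 66272849 was at 13.6% in hippocampus, against 4.35% in cortex and 3.98% in cerebellum, which made it the site with the largest ratio of hippocampus to cortex (3.12-fold). The opposite pattern was seen at 66272648, with 7.30% in cortex, 2.04% in hippocampus and 9.09% in cerebellum. Position 66272988 (8.11%, 2.38% and 8.50%) and position 66272000 (7.74%, 2.52% and 11.8%) followed the same order. These 3 sites had the lowest ratios of hippocampus to cortex and were also among the 5 with the largest ratios of cerebellum to hippocampus. A larger cerebellar level than in either other region was seen at 66272671 (2.78% in cortex, 1.92% in hippocampus, 9.52% in cerebellum), 66273029 (4.35%, 2.63% and 10.9%) and 66273020 (1.57%, 4.71% and 6.96%).

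Fewer sites were lower in cerebellum. Position 66272883 was at 4.88% in cortex, 2.04% in hippocampus and 1.02% in cerebellum, the lowest level of any Scn1a site. It lies 6 nt from 66272877, where the levels were 2.38%, 5.10% and 4.72%, a different order of the regions. Position 66272883 was named for its large ratios, and its cerebellar level is near the lowest listed level of 1%. Depth is unknown, so whether adjacent sites differ in their order over the regions was not tested. Position 66271853 was at 6.80% in cortex and 2.06% in cerebellum, while 66271843, 10 nt away, was at 4.95% in cortex, 10% in hippocampus and 9.62% in cerebellum. Position 66272946 stood at 6.32%, 5.66% and 2.34%. Among the 25 sites of all regions, the highest level was in cerebellum at 11 (44.0%, against 37.3% of such sites of all genes), in hippocampus at 8 (32.0%, against 29.2%) and in cortex at 6 (24.0%, against 33.3%).

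Scn1a was set beside the other sodium channel genes. Scn4a, Scn7a, Scn9a, Scn10a and Scn11a, alpha subunit family members known mainly from muscle, glia and peripheral neurons, had no site, and Scn3a, an alpha subunit of the developing brain, had 1 hippocampal site at 6.25%. Scn1a had more sites than each of the alpha subunit genes named here in every region. Scn8a encodes Nav1.6, the main channel of the mature axon initial segment and nodes of Ranvier, and had 26 cortical, 15 hippocampal and 23 cerebellar sites, with the lowest number in hippocampus as for Scn1a. Scn2a, which encodes Nav1.2 of excitatory neurons and lies near Scn1a on chromosome 2, had 32, 25 and 2.

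The levels of Scn8a and Scn2a also differed in their pattern. Scn8a was higher in cerebellum than in cortex at 12 of 18 shared sites and at least 2 times higher at 6, with a median log2 ratio of 0.41. Over all genes 52.6% of these shared sites were higher in cerebellum and 15.1% at least 2 times higher. As for Scn1a, all 15 of the hippocampal sites of Scn8a were listed in cortex, against 69.7% over all genes. Scn8a sites lay farther from the 3′ end, at a median of 4569 nt. Scn2a sites had a median distance of 2448 nt. Only 2 Scn2a sites were listed in cerebellum. The site at 65765220 was at 8.85% in cortex, 8.86% in hippocampus and 4.21% in cerebellum. The other, at 65701830 and 65617 nt upstream of the 3′ end, was at 52.5%, 50.6% and 46.7%. No Scn1a site reached such a level, and the next highest Scn2a value was 9.29% (65764703, hippocampus). No APOBEC1-YTHmut value is listed, so whether the value at 65701830 comes from APOBEC1-YTH editing was not tested. The difference between Scn1a and these genes was not tested, since each list is 1 pooled value per site.

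**Figure D4:**
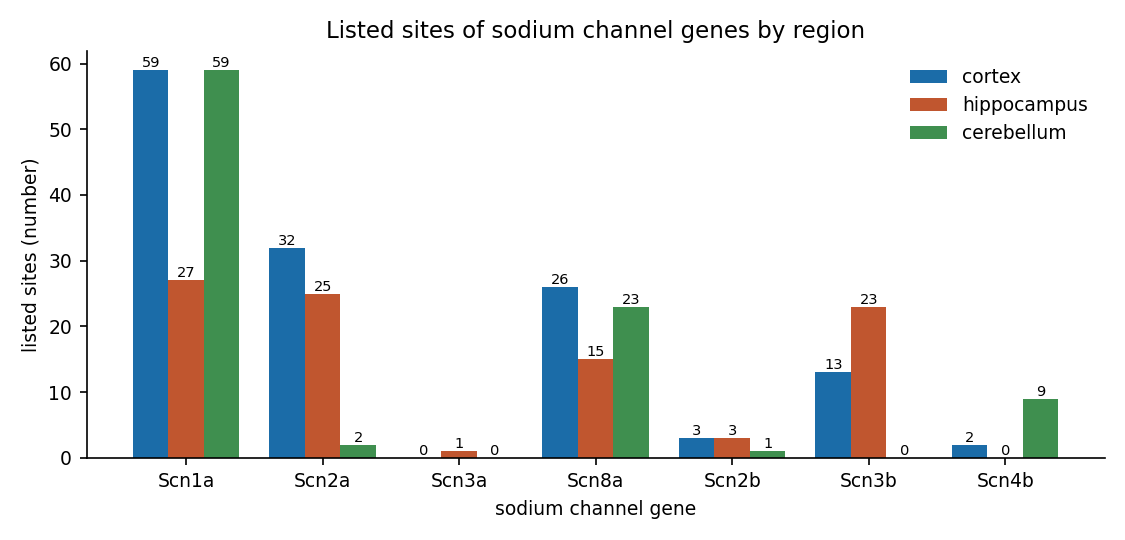
Number of listed sites (vertical axis) in cortex, hippocampus and cerebellum for 7 sodium channel genes with a site in any region, with 1 bar per region and the number above it. Scn1a has 59, 27 and 59 sites, Scn2a has 32, 25 and 2, and the beta subunit genes Scn3b and Scn4b have 13, 23 and 0 and 2, 0 and 9.

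Beta subunits are the single-pass partners that modulate gating and surface expression of the alpha subunits. Scn3b had 13 cortical, 23 hippocampal and 0 cerebellar sites, and Scn4b, whose product supports resurgent current in Purkinje cells, had 2, 0 and 9. Scn4b had its lowest number in hippocampus, as Scn1a did, and Scn3b in cerebellum. Scn2b had 3, 3 and 1 sites. The sites of these 3 genes were at 11.8% or lower in every list.

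The genes most like Scn1a in site numbers were named by the distance of log2(number + 1) over the 3 lists, among 56 genes with at least 20 sites in each. The 5 closest were Atp2b2, which encodes a plasma membrane calcium pump (43 cortical, 34 hippocampal and 57 cerebellar sites, distance 0.55), Kcnj10, which encodes the glial potassium channel Kir4.1 (51, 31 and 42, distance 0.56), and Hapln4, which encodes a perineuronal net link protein (44, 36 and 57, distance 0.58), followed by Caln1 (47, 44 and 53, distance 0.77) and Panx2 (49, 41 and 43, distance 0.78). The genes were picked on these numbers, so a shared order of regions follows largely from the choice. The likeness in site numbers rests on 3 pooled values per gene. Cortex listed 97.1% of the hippocampal sites of Atp2b2, 96.8% for Kcnj10 and 97.6% for Panx2, but 86.1% for Hapln4 and 70.5% for Caln1. The Scn1a share was 100%. Cerebellum listed 93.2% of the cortical sites of Hapln4, 90.7% for Atp2b2 and 81.6% for Panx2, above the 78.0% of Scn1a. Caln1 (70.2%) and Kcnj10 (64.7%) were below it. High shares were therefore not confined to Scn1a.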

How the data were processed

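Poly(A) RNA-seq libraries were made from 900 ng of total RNA with a directional kit, per the labels' protocols. Alignment used STAR 2.7.5 and mm10, per the submitters' processing notes. How sites were called, with which thresholds and depth, and how libraries were pooled is not given in the sources used here. The authors deposited 1 list per region without a header, and the column after the gene symbol is a fraction between 0 and 1, read here as the edited share of reads and multiplied to percent. Every position occurred once per list, and the lowest level was 1%. Positions are 1-based. As a check, 29 listed sites of any gene lay in RefSeq promoter windows of GRCm38.p6 on the same strand, and the base was C, preceded by A, at all 29. Sequence around the Scn1a sites was not analysed here.

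Sites with the symbol Scn1a were compared by nucleotide and strand, and distances were taken to the RefSeq gene start coordinate, the 3′ end on the minus strand. No interval is given for the shares, since neighbouring sites share transcripts and often reads. The matching, merging and fold counting of sites were run on simulated lists with planted values. That run checks the counting only and tests no difference between regions. Named sites were the 5 highest per region and the 5 largest ratios in each direction per pair, and named genes were members of fixed lists and the 5 most alike in site number. Some list members are not reported here. Members and lists were chosen with earlier results of these data known. Depth per library is unknown. The labels of the 20 libraries show 4 animal numbers for APOBEC1-YTH and 3 for APOBEC1-YTHmut. Alternatives were a minimum level of 2% or 10%, merging or matching within 10 or 50 nt, scaling to the same median and sites of all regions only. Software was pandas 2.3.3, numpy 2.4.6 and scipy 1.17.1 under Python 3.11.15, with figures from matplotlib 3.10.9.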

Additional observations from a re-analysis of the deposited data

How the results depend on the processing

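Numbers of Scn1a sites depended on what counts as a site. With a minimum level of 10% there were 2 cortical, 3 hippocampal and 8 cerebellar sites, and with sites within 50 nt merged 22, 14 and 20, so that hippocampus had the fewest after merging but not at 10%. Merging within 10 nt (41, 22 and 43) and a minimum level of 2% (46, 26 and 56) kept hippocampus below the others. At 2% cortex and cerebellum no longer had equal numbers. At the 25 sites of all regions the median level was 4.95% in cortex and 7.66% in cerebellum. Matching within 10 nt placed 88.1% of cortical sites in cerebellum. Matching within 50 nt placed 94.9% of cortical sites in cerebellum, 72.9% of cortical sites in hippocampus, 89.8% of cerebellar sites in cortex and 64.4% of cerebellar sites in hippocampus. With a level of at least 2% in both lists, 84.6% of hippocampal sites were in cortex, and the share over all genes was not computed. With at least 10% in both, few sites were left. Cerebellum then listed 100% of 2 cortical sites and 33.3% of 3 hippocampal sites, cortex listed 33.3% of 3 hippocampal and 25% of 8 cerebellar sites, and hippocampus listed 12.5% of 8 cerebellar sites. The median log2 ratios kept their sign under each of the 4 alternatives run for them. That of cerebellum to cortex was 0.32 at the 25 sites of all regions, 0.32 with levels of at least 2% in both, 0.45 with sites within 10 nt merged and 0.51 after scaling. No paired analysis was possible because each region was deposited as 1 pooled list with no value per animal, and for the same reason no animal could be left out. Read depth limits which low levels can be listed, and it is unknown.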

Other observations

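Partners of sodium channels at the axon initial segment, a list of 14 genes, had 11 members with a cortical, 10 with a hippocampal and 7 with a cerebellar site. The same order holds over all genes with a site, of which 84.8% had one in cortex, 68.3% in hippocampus and 59.7% in cerebellum. Ank3, which encodes the scaffold ankyrin-G that anchors sodium channels there, had 35 cortical, 22 hippocampal and 19 cerebellar sites, and 13 of its 41 positions were in all 3 lists. The cell adhesion gene Nrcam had 24, 18 and 9 sites and Nfasc, which encodes neurofascin, 8, 8 and 9. Kcnq3, which encodes a subunit of the M-type potassium channel tethered to ankyrin-G, had 35 cortical, 18 hippocampal and 0 cerebellar sites. Fgf12, whose product binds sodium channel alpha subunits, had 19, 6 and 11, the same order of regions as Scn8a.

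Several genes known from fast-spiking neurons also had sites. The potassium channel genes Kcna1 (13 cortical, 5 hippocampal and 12 cerebellar sites) and Kcna2 (21, 5 and 10) had their lowest number in hippocampus. Kcnc1 had 31, 18 and 8 sites and Kcnc2 20, 10 and 1. Pvalb, which encodes parvalbumin, had 1 site in cortex and 1 in cerebellum, at different nucleotides. Of 7 neighbours of Scn1a on chromosome 2, 2 had a site, Scn2a and Scn3a (1 hippocampal site), and Ttc21b, Galnt3, Csrnp3, Scn9a and Scn7a had none. The share of all annotated genes with a site was not computed, so no contrast with the neighbours is drawn.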
